A study of Mus musculus with 8 samples.

Results

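The genes described here make, rebuild and break down the glycerophospholipids of membranes, including cardiolipin, the signature lipid of the inner mitochondrial membrane. They are 38 genes taken by symbol from a table of 55385 genes, and 37 of them had enough counts to be tested. RNA was sequenced from the left ventricle of male C57BL6 mice. The 4 Mst1-TG libraries come from mice that carry an Mst1 transgene under the alpha-myosin heavy chain promoter, which limits it to cardiomyocytes, and are labelled as experimental dilated cardiomyopathy. The 4 WT libraries come from littermates without the transgene, labelled as control. The series' design text gives an age of 3 weeks for these mice, the extraction protocol gives 3 months, and the growth protocol names young animals of 3 weeks and adults of 5.5 months, so the age is not settled. No further treatment is named for either group. Whether each library comes from its own animal is not said in the labels, and the p-values measure only how these samples spread, which may be technical. The symbol Taz stands here for tafazzin, the cardiolipin transacylase, and not for the partner of YAP in the Hippo pathway.

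Glycerophospholipids share a glycerol backbone with fatty acyl chains and differ in their head group. The Kennedy pathway makes phosphatidylcholine and phosphatidylethanolamine in parallel steps: a kinase phosphorylates choline or ethanolamine, a cytidylyl transferase activates it with CTP, and a transferase joins it to diacylglycerol. A separate route activates phosphatidic acid as CDP-diacylglycerol, from which phosphatidylinositol and, inside mitochondria, phosphatidylglycerol and cardiolipin are made. Phospholipases remove acyl chains and acyltransferases put others back, an exchange known as the Lands cycle. In heart muscle, with its dense mitochondria, cardiolipin is remodelled to a form rich in linoleic acid, and loss of tafazzin causes Barth syndrome, a cardiomyopathy.

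Levels are in CPM, counts scaled to a common library size with TMM factors, given as mean ± SD with n = 4 libraries per group. A gene was called higher or lower where the edgeR quasi-likelihood test gave an adjusted p under 0.05 over all 15314 genes tested. Log2 fold changes are Mst1-TG over WT ± SE. Libraries held 21193536 to 23809256 counts. Stk4, the gene of the Mst1 kinase, had 27.2 ± 1.88 CPM in WT, against 1608 ± 130 CPM in Mst1-TG libraries, with no overlap. Transcripts encoded by the mitochondrial genome took 21.4 to 23.8% of counts in WT and 12.9 to 14.4% in Mst1-TG (two-sided exact permutation test, p = 0.0286, the smallest that 4 against 4 allows). The summed level of 8 cardiomyocyte markers spanned 43100 to 51130 CPM in WT against 29860 to 39690 CPM in Mst1-TG, and 5 of the 8 were called lower. The summed level of 8 fibroblast markers spanned 2641 to 3509 CPM in WT against 5781 to 8220 CPM in Mst1-TG, and all 8 were called higher. Of 7 endothelial markers 3 were called lower, and of 7 smooth muscle and pericyte markers 1 higher and 3 lower. Macrophage and leukocyte markers summed to 201 to 255 CPM in WT against 195 to 278 CPM in Mst1-TG, and erythroid markers to 5858 to 14910 against 3591 to 7653 CPM. No marker of these lists was at 0 in all libraries. The part of these shifts in the results below was not tested. In a bulk sample, fewer cells of a type and less RNA per cell cannot be told apart.

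Of the 37 members tested, 7 were called higher in Mst1-TG, 12 lower and 18 in neither direction. The share called was 51.4%, beside 42.3% of all genes tested. Over all genes, 21.2% were called higher and 21.1% lower. The levels of 19 members (51.4%) did not overlap between the groups, beside 40.3% of all genes. A call with a log2 change of at least 0.5 in either direction was made for 6 members (16.2%), beside 24.6% of all genes. The members' median log2 fold change was −0.14, beside 0.01 for all genes, and the median size was 0.28 for the members and for all genes alike. The module thus held a share of calls not far from the background, and 13 of its 19 calls were of small size. With library totals in place of TMM factors the median of all genes moved by 0.285 and 15 members were called higher and 3 lower. Chkb (log2 −0.09), Ptpmt1 (−0.03), Taz (−0.15), Lpcat3 (−0.10) and Pnpla8 (−0.09) were then no longer called, and Cept1, Etnk1, Ptdss2 and Cds2 turned to small positive values. The members' median stood 0.15 below that of all genes with TMM factors and 0.14 below with totals.

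**Figure D1:**
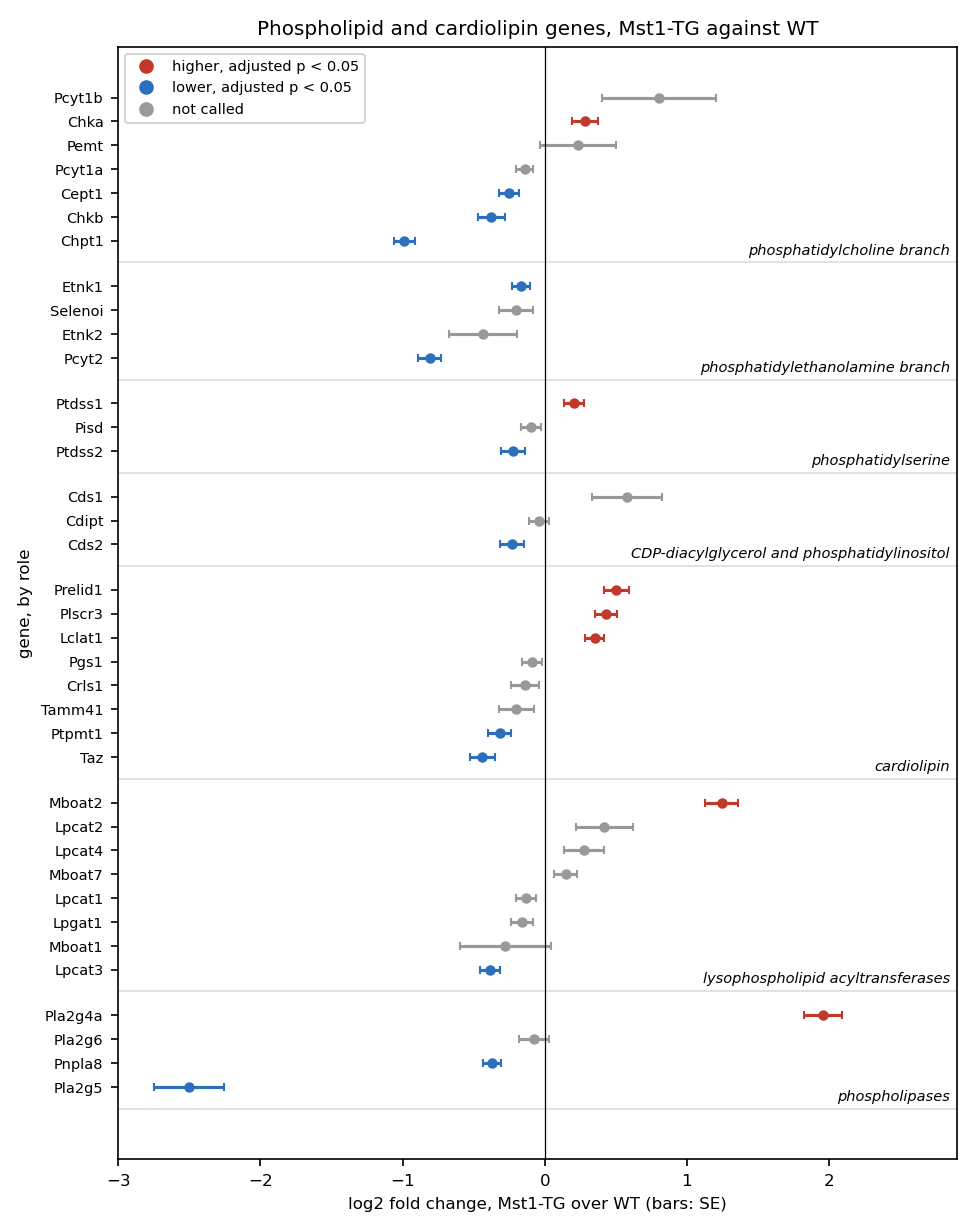
Log2 fold change of each of the 37 tested members (Mst1-TG over WT, edgeR, x axis), grouped by role, with bars of 1 SE; red and blue mark genes called higher and lower. Pla2g5 (−2.50) and Pla2g4a (1.96) lie farthest from 0, followed by Mboat2, Chpt1 and Pcyt2.

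The largest differences lay in genes that remove or replace acyl chains, namely the phospholipases Pla2g5 and Pla2g4a and the acyltransferase Mboat2. The promoters of these 3 genes and of Lclat1, a cardiolipin acyltransferase that was also higher, are printed here to show how unlike they are, as bases before the most upstream RefSeq start on GRCm38.p6, 5′ to 3′ in the gene's sense. They lie at chr4:138863483-138863719 (minus strand) for Pla2g5, chr1:149961291-149961540 (minus) for Pla2g4a, chr12:24831349-24831598 (plus) for Mboat2 and chr17:73107735-73107984 (plus) for Lclat1. The Mboat2 window lies in the first intron of a GENCODE M21 transcript that starts further upstream, and none of the 4 stretches printed holds an exon of its gene's strand. For Pla2g5 the 13 bases next to the RefSeq start are left off, because they fall in a GENCODE M21 exon. Capitals mark a TEAD site (GGAATG, or CATTCC on the other strand) and CCAAT boxes (CCAAT, or ATTGG on the other strand).
Pla2g5: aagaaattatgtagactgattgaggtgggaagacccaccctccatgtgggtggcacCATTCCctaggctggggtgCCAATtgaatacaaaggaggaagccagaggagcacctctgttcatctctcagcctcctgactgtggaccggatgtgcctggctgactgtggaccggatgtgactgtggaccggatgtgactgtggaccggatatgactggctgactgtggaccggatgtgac
Pla2g4a: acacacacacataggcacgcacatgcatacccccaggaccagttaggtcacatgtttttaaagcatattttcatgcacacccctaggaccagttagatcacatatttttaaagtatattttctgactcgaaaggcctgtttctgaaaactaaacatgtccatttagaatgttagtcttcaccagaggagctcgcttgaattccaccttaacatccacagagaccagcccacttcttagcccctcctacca
Mboat2: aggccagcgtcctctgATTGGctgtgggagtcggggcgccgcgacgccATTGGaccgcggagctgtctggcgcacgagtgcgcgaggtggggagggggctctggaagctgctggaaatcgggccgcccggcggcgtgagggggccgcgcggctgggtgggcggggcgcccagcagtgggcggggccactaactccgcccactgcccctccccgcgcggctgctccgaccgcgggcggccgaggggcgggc
Lclat1: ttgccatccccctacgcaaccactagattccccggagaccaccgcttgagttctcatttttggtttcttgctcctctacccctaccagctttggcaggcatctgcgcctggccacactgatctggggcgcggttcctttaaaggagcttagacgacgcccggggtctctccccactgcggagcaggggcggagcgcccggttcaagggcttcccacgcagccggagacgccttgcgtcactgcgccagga

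The Mboat2 promoter is a GC-rich one, with 77.6% GC and 33 CpG dinucleotides in 250 bases. The Pla2g4a window has 43.2% GC and 3 CpG in the same length, and that of Lclat1 62.4% GC and 18 CpG. The 237 bases of Pla2g5 have 55.3% GC and 5 CpG, and near the start the 17 bases tgactgtggaccggatg occur 4 times. Across all 32851 RefSeq promoters the median was 52.4% GC with 6 CpG, and across the 49 promoters matched to 34 members it was 61.6% GC with 17 CpG.

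A set of 5 motifs were searched on both strands in the 250 bases before each start. The TEAD site, the DNA element read by the partners of YAP, was in 12.2% of the members' promoters (6) and in 12.6% of all. These 6 belong to 4 genes (Pcyt1a, Pcyt1b, Pla2g5 and Plscr3), and overlapping windows of Pcyt1a hold the same site. The core read by oestrogen-related receptors (AAGGTCA) was in 4.08% of both, in Ptpmt1 and Selenoi among the members. An E-box (CACGTG) was in 6.12% against 6.02%, and a CCAAT box in 36.7% against 33.8%. The NRF1 core (GCATGC) was in 2.04% against 6.7%, that is in 1 member promoter, of Ptdss2. The members' promoters thus held the first 4 motifs at shares near those of all promoters. A match is a description of the letters and not a site of binding.

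Pla2g5, which encodes a secreted phospholipase A2 (chr4:138799244-138863482, minus strand, GRCm38), fell most of all members. It stood at 37.96, 50.5, 44.9 and 41.1 CPM in WT 1 to 4 and at 9.61, 9.63, 3.79 and 7.78 CPM in Mst1-TG 1 to 4. Every Mst1-TG library lay below every WT library, and the mean was 5.66-fold lower, with a log2 change of −2.50 ± 0.24 (edgeR adjusted p = 3.7e-05). Its Mst1-TG libraries spread more than those of WT, at 7.70 ± 2.75 CPM against 43.6 ± 5.4 CPM. Pla2g2a, which overlaps it on the other strand and is annotated as a polymorphic pseudogene, had 0 counts in these libraries.

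Pla2g4a encodes the cytosolic phospholipase A2 that releases arachidonic acid (chr1:149829618-149961290, minus strand, GRCm38). Its level was 4.91, 5.22, 4.90 and 4.59 CPM in WT 1 to 4, and Mst1-TG 1 to 4 stood at 23.2, 15.1, 19.8 and 18.0 CPM. The lowest Mst1-TG library was well above the highest of WT. The mean rose 3.88-fold, a log2 change of 1.96 ± 0.13 (edgeR adjusted p = 1.3e-07). Pnpla8, a calcium-independent phospholipase of mitochondria and peroxisomes, fell from 113.8 to 88.0 CPM, without overlap (log2 change −0.37 ± 0.06, adjusted p = 2.9e-04 by edgeR). Pla2g6, the calcium-independent phospholipase A2 beta, was at 8.15 and 7.72 CPM and was not called (edgeR adjusted p = 0.59). The 4 phospholipases thus included the member that rose most, the member that fell most and 1 whose groups overlapped. Of the 4, 1 was called higher and 2 lower (75% called, beside 42.3% of all genes).

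**Figure D2:**
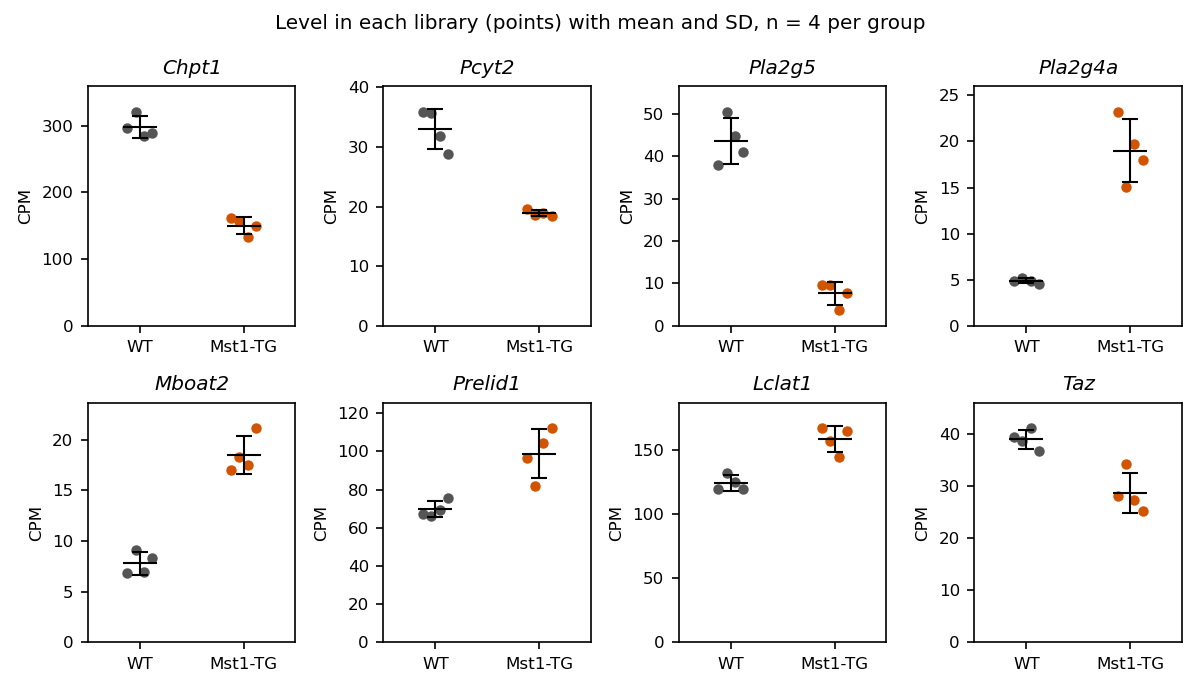
Level in each library (y axis, TMM-scaled CPM, linear from 0) of selected members in WT and Mst1-TG, 1 point per library with the group mean and bars of 1 SD. The groups do not overlap for any gene drawn, that is Pla2g4a, Pla2g5, Mboat2, Chpt1, Pcyt2, Prelid1, Lclat1 and Taz.

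Among the 8 lysophospholipid acyltransferases, which put an acyl chain back on a lysophospholipid, 1 rose, 1 fell and 6 were not called. That is 25% called, beside 42.3% of all genes. Mboat2, which acts on lysophosphatidylethanolamine and lysophosphatidylcholine, was at 6.80, 9.15, 6.90 and 8.36 CPM in WT 1 to 4. In Mst1-TG 1 to 4 it was at 17.0, 18.3, 17.4 and 21.1 CPM. All 4 Mst1-TG libraries were above all 4 of WT, a 2.37-fold rise (log2 change 1.24 ± 0.12, adjusted p = 2.1e-06 by edgeR). Lpcat3, which places polyunsaturated chains on phosphatidylcholine, fell from 40.8 to 31.3 CPM (log2 change −0.38 ± 0.07, adjusted p = 7.6e-04 by edgeR). Emg1, which overlaps Lpcat3 on the other strand, also went from 46.9 to 34.0 CPM and was called lower. How the counting treated strand is not given in the sources used here.

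The other acyltransferases differed little. Lpcat1 was at 20.7 and 18.9 CPM, and its groups did not overlap although it was not called (log2 change −0.13 ± 0.07, adjusted p = 0.16 by edgeR). Lpcat2 had a log2 value of 0.42 ± 0.20, Lpcat4 of 0.27 ± 0.14 and Mboat7, which acts on lysophosphatidylinositol, of 0.15 ± 0.08. Lpgat1, at 120 and 107 CPM, had −0.16 ± 0.08. Mboat1, at 2.06 and 1.70 CPM, had −0.28 ± 0.32, so that its SE exceeded its change.

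In the phosphatidylcholine branch, 1 of 7 genes was called higher and 3 lower (57.1% called, beside 42.3% of all genes). Chpt1, the choline phosphotransferase of the last step (chr10:88452745-88504073, minus strand, GRCm38), stood at 297, 321, 285 and 289.8 CPM in WT 1 to 4. Its levels in Mst1-TG 1 to 4 were 162, 157, 133 and 149.6 CPM. The groups were far apart, and the mean fell 1.98-fold (log2 change −0.99 ± 0.08, adjusted p = 3.1e-07 by edgeR). Cept1, the transferase that accepts either head group, fell from 23.6 to 19.8 CPM (log2 change −0.25 ± 0.07, adjusted p = 0.013 by edgeR).

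The choline kinases went opposite ways. Chka rose from 12.4 ± 1.13 to 15.0 ± 0.476 CPM (log2 change 0.28 ± 0.09, adjusted p = 0.023 by edgeR), and the call was lost without WT 1 (0.075) or without Mst1-TG 2 (0.051). Chkb fell from 37.9 ± 2.5 to 29.3 ± 4.07 CPM (log2 change −0.37 ± 0.09, adjusted p = 0.0061 by edgeR). Chkb overlaps the read-through gene Gm44502 over 3337 bases of the same strand, and that gene was at 3.66 and 1.99 CPM. The span of Gm44502 also covers Cpt1b, which was called lower, from 494.8 to 283.7 CPM. Any part of this locus in the Chkb value was not tested. Pcyt1a, the main cytidylyl transferase of the branch, was not called at 120.7 and 109.4 CPM (edgeR adjusted p = 0.086). Its paralogue Pcyt1b had 3 to 10 counts in WT libraries and 11 to 16 in Mst1-TG libraries, and passed the filter on low counts through Mst1-TG alone. Pemt, which makes phosphatidylcholine from phosphatidylethanolamine mainly in liver, was at 1.45 and 1.70 CPM and was not called (edgeR adjusted p = 0.52).

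In the phosphatidylethanolamine branch, 2 of 4 genes were called lower and 0 higher (50% called, beside 42.3% of all genes). Pcyt2, the ethanolamine cytidylyl transferase (chr11:120610087-120617936, minus strand, GRCm38), was at 35.9, 35.6, 31.9 and 28.8 CPM in WT 1 to 4. Mst1-TG 1 to 4 were at 19.5, 18.6, 18.9 and 18.4 CPM, so these libraries lay close together and below all of WT. Its log2 change was −0.81 ± 0.08 (edgeR adjusted p = 3.6e-06). Etnk1, the ethanolamine kinase, moved from 65.7 to 58.5 CPM at the edge of the threshold (log2 change −0.17 ± 0.06, adjusted p = 0.049 by edgeR). Leaving out any library other than Mst1-TG 1 ended this call, with adjusted p from 0.056 (without Mst1-TG 3) to 0.13 (without Mst1-TG 4). Selenoi, the ethanolamine phosphotransferase, had −0.20 ± 0.12 and Etnk2 −0.43 ± 0.24, neither called.

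The enzymes of phosphatidylserine split, with 1 of 3 genes called higher and 1 lower (66.7% called, beside 42.3% of all genes). Ptdss1, which exchanges serine for choline, rose from 54.0 to 62.2 CPM (log2 change 0.21 ± 0.07, adjusted p = 0.029 by edgeR). Ptdss2, which exchanges serine for ethanolamine, fell from 28.0 to 23.96 CPM (log2 change −0.22 ± 0.08, adjusted p = 0.042 by edgeR). The call of Ptdss1 was lost without WT 1 (0.096), WT 2 (0.081) or Mst1-TG 4 (0.073), and that of Ptdss2 without any library other than Mst1-TG 2 or 3 (0.051 to 0.13). Pisd, the mitochondrial decarboxylase that makes phosphatidylethanolamine from phosphatidylserine, was at 37.3 and 34.8 CPM and was not called (edgeR adjusted p = 0.29). Its pseudogenes Pisd-ps1 and Pisd-ps2 were listed at 1.73 and 1.08 CPM in WT and at 2.40 and 1.33 CPM in Mst1-TG, and reads may be shared with them.

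Of the enzymes at CDP-diacylglycerol, Cds2, the main CDP-diacylglycerol synthase of these libraries, moved from 256 ± 19.9 to 218 ± 23.8 CPM, and its groups overlapped (log2 change −0.23 ± 0.09, adjusted p = 0.046 by edgeR). Leaving out any library other than WT 4 or Mst1-TG 2 ended the call, with adjusted p from 0.052 (without WT 2) to 0.13 (without WT 3). Its paralogue Cds1 was at 1.58 and 2.36 CPM and was not called (log2 change 0.58 ± 0.25, adjusted p = 0.076 by edgeR). Cdipt, the phosphatidylinositol synthase, was at 52.3 and 50.9 CPM (log2 change −0.04 ± 0.07, adjusted p = 0.69 by edgeR). Thus 1 of these 3 genes was called (33.3%, beside 42.3% of all genes).

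The mitochondrial route to cardiolipin starts with Tamm41, which makes CDP-diacylglycerol in the inner membrane, and goes on through Pgs1, Ptpmt1 and Crls1. Of the 8 tested members with a role in cardiolipin, 3 were called higher and 2 lower (62.5% called, beside 42.3% of all genes). In the route from Tamm41 to Crls1, only Ptpmt1, the phosphatase that yields phosphatidylglycerol, was called. It was at 34.4, 32.9, 32.6 and 29.0 CPM in WT 1 to 4 and at 24.4, 24.4, 25.4 and 29.4 CPM in Mst1-TG 1 to 4. Mst1-TG 4 lay above WT 4, so the groups overlapped, and the log2 change was −0.32 ± 0.08 (edgeR adjusted p = 0.0071). Kbtbd4, on the other strand, also was called lower, from 16.9 to 12.2 CPM.

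Tamm41 was at 6.94, 6.77, 5.80 and 7.51 CPM in WT 1 to 4, and Mst1-TG 1 to 4 had 6.08, 5.31, 5.91 and 6.23 CPM, within overlapping ranges (log2 change −0.20 ± 0.12, adjusted p = 0.22 by edgeR). Pgs1, the phosphatidylglycerophosphate synthase, was at 26.3, 29.1, 30.1 and 29.2 CPM in WT 1 to 4. Its Mst1-TG libraries, at 28.9, 26.5, 26.5 and 25.9 CPM, overlapped with those of WT (log2 change −0.09 ± 0.07, adjusted p = 0.33 by edgeR). Crls1, the cardiolipin synthase, was at 17.0, 16.3, 17.6 and 15.2 CPM in WT 1 to 4 and at 17.7, 14.0, 14.3 and 14.1 CPM in Mst1-TG 1 to 4. The first Mst1-TG library was the highest of all 8 and the others were below all of WT, and the log2 value was −0.14 ± 0.10 (edgeR adjusted p = 0.29).

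Remodelling of cardiolipin gave called changes in opposite directions. Taz, the transacylase tafazzin (chrX:74281912-74290151, plus strand, GRCm38), was at 39.6, 38.7, 41.2 and 36.7 CPM in WT 1 to 4 and at 28.2, 34.3, 27.4 and 25.3 CPM in Mst1-TG 1 to 4. The groups did not overlap, and the log2 change was −0.44 ± 0.09 (edgeR adjusted p = 0.0014). Lclat1, which reacylates lysocardiolipin (chr17:73107985-73243368, plus strand, GRCm38), was at 119.6, 133, 126 and 119.5 CPM in WT and at 167, 158, 145 and 165 CPM in Mst1-TG. Every Mst1-TG library was above every WT library, at log2 0.35 ± 0.07 (edgeR adjusted p = 8.1e-04).

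Prelid1, which carries phosphatidic acid between the mitochondrial membranes, was at 67.2, 66.2, 69.5 and 75.7 CPM in WT 1 to 4. It was at 96.6, 82.1, 104.3 and 112 CPM in Mst1-TG 1 to 4, above WT in every library, a 1.42-fold rise (log2 change 0.50 ± 0.09, adjusted p = 4.6e-04 by edgeR). Its neighbour on the other strand, Rab24, was called lower, at 27.2 and 23.2 CPM. Plscr3, the mitochondrial phospholipid scramblase, rose from 36.2 to 49.0 CPM (log2 change 0.43 ± 0.08, adjusted p = 5.3e-04 by edgeR). Pld6, a phospholipase D of the mitochondrial surface that acts on cardiolipin, did not pass the filter on low counts. It had 7, 7, 8 and 6 counts in WT 1 to 4 and 0, 2, 2 and 3 in Mst1-TG 1 to 4, a ratio of WT to Mst1-TG of 4.73 (95% interval 2.02 to 12.8, counting error only).

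By place, 2 of 9 tested mitochondrial members were called higher and 3 lower, and of the 28 others 5 were called higher and 9 lower, beside 21.2% and 21.1% of all genes. With library totals the counts were 4 and 0 for the mitochondrial members and 11 and 3 for the others, and without WT 1 the others had 3 called higher. The median log2 value was −0.14 in each of these sets. The difference between the sets was not tested.

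Levels of different genes were compared per kilobase of the longest coding transcript in GENCODE M21. On that scale Chpt1 was the most abundant member in WT, at 61.3 ± 3.32 CPM per kilobase, ahead of Cds2 at 30.4. In Mst1-TG it came behind Prelid1 and Lclat1, at 30.9 ± 2.6 against 37.3 ± 4.84 and 35.5 ± 2.27 CPM per kilobase, and neighbours in this order had overlapping ranges of mean ± SD. Pla2g5 went from the 9th place in WT (19.0 ± 2.36) to the 27th in Mst1-TG (3.36 ± 1.2). Pcyt1b was lowest among the tested members in both groups.

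Ratios within a library do not depend on how libraries are scaled, and 16 pairs of paralogues or neighbouring steps were compared by their count ratio. Nothing is read from Pcyt1a to Pcyt1b, since Pcyt1b passed the filter on low counts through Mst1-TG alone. For 10 of the other 15 pairs the ratios did not overlap between groups (two-sided exact permutation test, p = 0.0286 each, the smallest that 4 against 4 allows, 0.0429 after Benjamini-Hochberg adjustment over the 15). Leaving out 1 library raised the adjusted p (over all 16 pairs) of each of these 10 over 0.05 in at least some of the 8 cases, up to 0.083. How many pairs of other genes would not overlap was not computed. By themselves, 40.3% of all genes tested did not overlap, and some members stand in more than 1 pair. The count of 10 is thus not read as a trait of these enzymes. The ratio of Lclat1 to Taz was 3.02, 3.42, 3.05 and 3.25 in WT 1 to 4 and 5.92, 4.59, 5.27 and 6.53 in Mst1-TG 1 to 4. The balance of these cardiolipin remodelling genes thus shifted to Lclat1 in every Mst1-TG library, from a geometric mean of 3.18 to 5.53. For Lclat1 and Taz, Chka and Chkb, and Ptdss1 and Ptdss2, the single genes already went opposite ways without overlap. Their ratios had to separate. The ranges of the single genes also left no room for overlap in Pla2g4a/Pla2g6, Mboat1/Mboat2, Chpt1/Cept1, Pcyt2/Pcyt1a and Lpcat3/Mboat7. The test on all these pairs thus adds no separate support. Only for Pisd/Ptdss1 and Cds1/Cds2 did the single-gene ranges leave the outcome open.

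The ratio of Pla2g4a to Pla2g6 went from 0.604 to 2.43, that of Chka to Chkb from 0.325 to 0.517 and that of Ptdss1 to Ptdss2 from 1.92 to 2.60. Cds1 to Cds2 went from 0.00607 to 0.0109, so Cds2 held nearly all counts of this pair in both groups. The ratio of Chpt1 to Cept1 went from 12.6 to 7.57, that of Pcyt2 to Pcyt1a from 0.273 to 0.173 and that of Pisd to Ptdss1 from 0.692 to 0.560. In the Lands cycle, Lpcat3 to Mboat7 went from 1.71 to 1.18 and Mboat1 to Mboat2 from 0.248 to 0.0912. The transferase pair Selenoi to Cept1 kept ratios that overlapped, at 0.960 and 0.993 (two-sided exact permutation test, p = 0.657, adjusted 0.701).

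**Figure D3:**
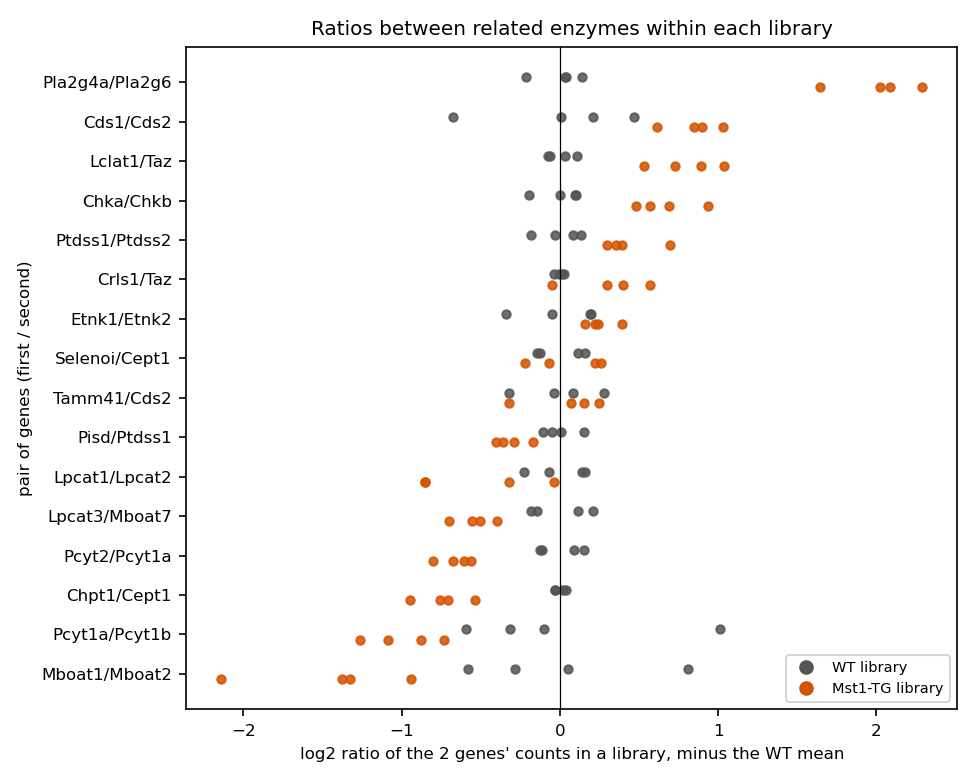
Log2 count ratio within each library minus the WT mean of that ratio (x axis) for the 16 pairs, 1 point per library. Beside Pcyt1a/Pcyt1b, from which nothing is read, the points of the groups are apart for 10 pairs, among them Lclat1/Taz and Pla2g4a/Pla2g6, and mixed for Selenoi/Cept1 and Tamm41/Cds2.

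Genes around these pathways were counted in 5 further lists of 74 tested genes in all, of which 17 were called higher and 27 lower (59.5% called, beside 42.3% of all genes). The lists were chosen with earlier results of these data known, so nothing is read from shares above that of all genes. With library totals the calls moved upward in most lists, as given beside each. The list named phosphatidic acid supply covers genes that lead to phosphatidic acid, the precursor of all glycerophospholipids. It also holds the phosphatase genes Lpin1 to Lpin3 and Plpp1 to Plpp3, whose enzymes use phosphatidic acid up. The list had 3 genes called higher and 9 lower of 17 (70.6% called, median log2 −0.29). With library totals 7 were called higher and 8 lower. Among the calls, Lpin3 (log2 0.67) and Plpp2 (0.76), both higher, and Lpin1, lower, are phosphatases, so the counts do not describe supply alone. Gpd1, which makes glycerol 3-phosphate, fell from 73.0 to 32.0 CPM (log2 change −1.19, adjusted p = 3.9e-07 by edgeR). Gpat3, an acyltransferase of the first step, fell from 20.7 to 8.87 CPM (log2 change −1.22, adjusted p = 3.5e-06 by edgeR). Lpin1, the phosphatidate phosphatase lipin 1, fell from 153.3 to 67.3 CPM (log2 change −1.19, adjusted p = 9.3e-06 by edgeR).

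For choline and ethanolamine supply, 6 of 12 genes were tested, 1 was called higher and 4 lower (83.3% called, median −0.21). The 4 lower calls became 2 without WT 1, WT 2, WT 3 or Mst1-TG 3, and 1 with library totals. Slc44a1, a choline transporter, rose from 64.0 to 77.9 CPM (log2 change 0.29, adjusted p = 0.002 by edgeR), while Slc44a2 fell from 117.7 to 101.9 CPM (log2 change −0.21, adjusted p = 0.018 by edgeR) and turned to 0.08 with library totals. Flvcr2, a choline transporter, fell from 2.82 to 1.43 CPM (log2 change −0.98, adjusted p = 0.0018 by edgeR).

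Of 12 tested genes of mitochondrial lipid transport and the inner membrane scaffold, 8 were called lower and 0 higher (66.7% called, median −0.37), and 5 lower and 1 higher with library totals. Without Mst1-TG 1, too, 1 was called higher. The prohibitins, which form a ring scaffold in the inner membrane, both fell: Phb from 246 to 126.3 CPM (log2 change −0.96, adjusted p = 3.0e-07 by edgeR) and Phb2 from 247.8 to 142.9 CPM (log2 change −0.79, adjusted p = 3.5e-07 by edgeR). Stard7, which carries phosphatidylcholine to mitochondria, fell from 181.7 to 98.3 CPM (log2 change −0.89, adjusted p = 4.2e-06 by edgeR).

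Scramblases and flippases move phospholipids between the leaflets of a membrane. Of 17 tested, 9 were called higher and 1 lower (58.8% called, median 0.20), and 14 higher and 0 lower with library totals. Plscr1 rose from 15.5 to 26.4 CPM (log2 change 0.77, adjusted p = 5.6e-06 by edgeR) and the flippase gene Atp9a from 74.96 to 120.6 CPM (log2 change 0.69, adjusted p = 7.1e-06 by edgeR). Atp8a2, a further flippase gene, rose from 7.59 to 16.03 CPM (log2 change 1.08, adjusted p = 4.0e-05 by edgeR). Among 22 tested genes of phospholipid breakdown, 4 were called higher and 5 lower (40.9%, near the 42.3% of all genes). The 4 higher calls became 2 without WT 2, WT 3 or Mst1-TG 4, and with library totals 7 were called higher and 2 lower. There Ddhd1, a phospholipase A1, rose from 15.8 to 27.2 CPM (log2 change 0.79, adjusted p = 1.1e-05 by edgeR) and Pla2g4e, a cytosolic phospholipase of the Pla2g4a family, fell from 8.51 to 3.37 CPM (log2 change −1.33, adjusted p = 1.5e-05 by edgeR). Abhd4, a lipase acting on N-acyl phospholipids, rose from 55.2 to 75.3 CPM (log2 change 0.45, adjusted p = 5.8e-05 by edgeR). Fibroblast marker sums were higher and cardiomyocyte sums lower in all Mst1-TG libraries, as given above, and their part in these counts was not tested.

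**Figure D4:**
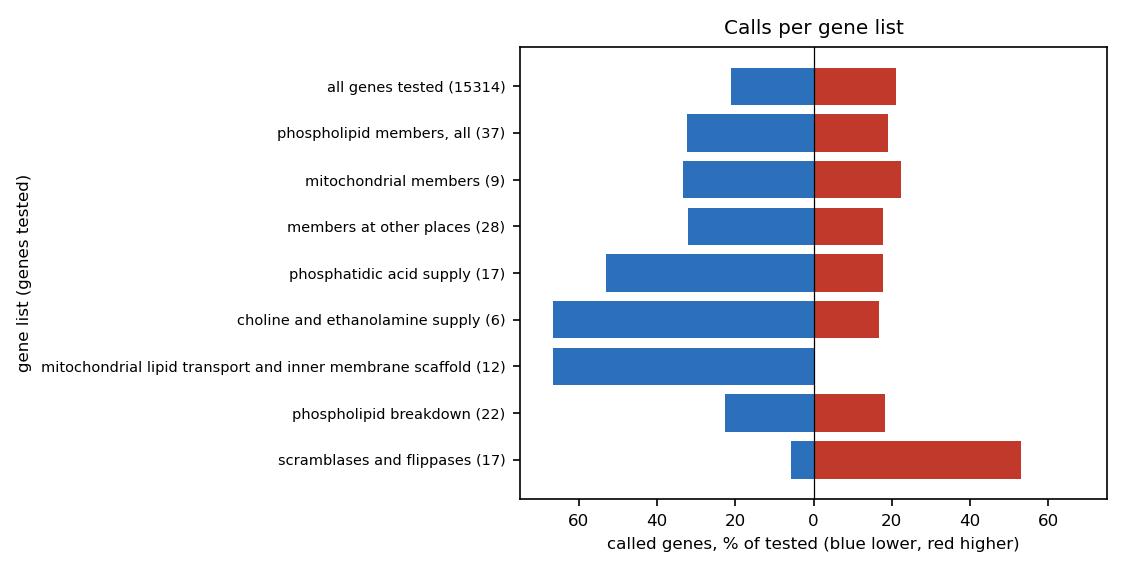
Share of tested genes called lower (left, blue) and higher (right, red) in Mst1-TG for all genes, the members and the 5 further lists, with the number tested in brackets. Both directions are near 21% for all genes. Mitochondrial lipid transport and scaffold has 8 of 12 lower, and scramblases and flippases have 9 of 17 higher. The further lists were chosen with earlier results of these data known, so nothing is read from these shares.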

How the data were processed

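Left ventricle RNA was depleted of ribosomal RNA and made into 4 Mst1-TG and 4 WT directional libraries from 200 ng each, per the labels' protocols. The authors deposited 1 table of estimated counts per gene, made with bcl2fastq 2.19.1.403 and kallisto 0.46.0 per the submitters' processing notes. The deposited estimated counts are whole numbers and not scaled for depth, and rounding changed nothing. For the genome build, annotation and strand setting the sources used here give nothing, so near-identical copies and overlapping genes may share reads. Symbols are those of the table, and positions and lengths come from GENCODE M21 (GRCm38).

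The tests ran in edgeR 4.0.16 under R 4.3.3: filterByExpr (minimum count 10, minimum total 15; 40071 genes set aside), TMM factors, a robust quasi-likelihood F test on the group alone, and Benjamini-Hochberg adjustment with a threshold of 0.05. The biological coefficient of variation was 11.4% and the median SE of a log2 fold change 0.111. Replicates of a group differed beyond counting noise. Within-library ratios added 0.5 to each count and were compared by an exact permutation test over libraries. Alternatives used DESeq2 1.42.0 and limma 3.58.1, other scalings and filters, a replicate block, and each library left out. The test was tried on simulated data first. The members and gene lists were chosen with earlier results of these data known. Full values are given for members with a log2 change of at least 0.5 that were called and for Tamm41, Pgs1, Ptpmt1, Crls1, Taz and Lclat1, and up to 3 genes of smallest p are named in each further list. Overlapping genes, pseudogenes and Cpt1b stand outside this rule.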

Additional observations from a re-analysis of the deposited data

Results flagged for a closer look

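Of 76 groups of 4 libraries (38 members in 2 groups), 3 had a library far from the other 3 by Dixon's criterion, and chance alone flags about 1 in 20 groups. Pcyt1a stood at 118.7 CPM in Mst1-TG 2 and at 105.6 to 107.3 CPM in the other Mst1-TG libraries, a gap of 0.871 of the range. Ptdss2 stood at 20.5 CPM in Mst1-TG 4 and at 24.6 to 25.5 CPM in the others, a gap of 0.831 of the range. Crls1 stood at 17.7 CPM in Mst1-TG 1 and at 14.0 to 14.3 CPM in the others, a gap of 0.925 of the range.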

How the results depend on the processing

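Of the 19 called members, 8 kept direction and call in all 16 alternatives (Chpt1, Pcyt2, Lclat1, Plscr3, Prelid1, Mboat2, Pla2g4a and Pla2g5), and 14 did so in the 15 other than library totals. With library totals, 7409 of all genes were called higher and 1592 lower, and 15 members higher and 3 lower. Log2 values then turned positive for Pcyt1a (0.14), Cept1 (0.034), Etnk1 (0.12), Selenoi (0.086), Ptdss2 (0.062), Pisd (0.19), Cds2 (0.055), Cdipt (0.245), Tamm41 (0.086), Pgs1 (0.19), Crls1 (0.15), Lpcat1 (0.15), Mboat1 (0.0003), Lpgat1 (0.12), Pla2g6 (0.21) and Slc44a2 (0.077). Leaving out 1 library gave Cdipt −0.0709 to 0.0052 and Mboat1 −0.4331 to 0.14, with Cdipt turning to 0.0052 (without WT 4) and 0.0035 (without Mst1-TG 2), and Mboat1 to positive values (without WT 4). Members called ranged over these fits from 5 to 7 higher and 9 to 13 lower. Log2 differences of the ratios ranged as follows: Cds1/Cds2 0.62 to 1.00, Chka/Chkb 0.58 to 0.73, Chpt1/Cept1 −0.80 to −0.67, Crls1/Taz 0.22 to 0.42, Etnk1/Etnk2 0.14 to 0.32, Lclat1/Taz 0.72 to 0.89, Lpcat1/Lpcat2 −0.68 to −0.41, Lpcat3/Mboat7 −0.60 to −0.47, Mboat1/Mboat2 −1.64 to −1.18, Pcyt1a/Pcyt1b −1.19 to −0.65, Pcyt2/Pcyt1a −0.70 to −0.61, Pisd/Ptdss1 −0.35 to −0.25, Pla2g4a/Pla2g6 1.92 to 2.13, Ptdss1/Ptdss2 0.35 to 0.48, Selenoi/Cept1 −0.0226 to 0.14, Tamm41/Cds2 −0.0699 to 0.16. Adjusting over the pairs other than Pcyt1a/Pcyt1b, chosen after seeing the data, changed no call. Counts of called genes by place and list (higher and lower) with library totals were 4 and 0 for mitochondrial members, 11 and 3 for other members, 7 and 8 for phosphatidic acid supply, 1 and 1 for choline and ethanolamine supply, 1 and 5 for mitochondrial lipid transport and scaffold, 7 and 2 for breakdown, and 14 and 0 for scramblases and flippases. With 1 library left out they ranged from 3 to 5 higher for other members, 2 to 4 lower for choline and ethanolamine supply, 0 to 1 higher for transport and scaffold, 2 to 4 higher for breakdown and 0 to 2 lower for scramblases and flippases, the last being 2 without a filter on low counts and with the replicate block. By role, a count under alternatives added after seeing the data, library totals gave 2 and 1 in the phosphatidylcholine branch, 0 and 1 in the phosphatidylethanolamine branch, 2 and 0 for phosphatidylserine, 2 and 0 for CDP-diacylglycerol and phosphatidylinositol, 4 and 0 for cardiolipin, 4 and 0 for acyltransferases, and 1 and 1 for phospholipases. With 1 library left out the ranges were 0 to 1 higher in the phosphatidylcholine branch, 1 to 2 lower in the phosphatidylethanolamine branch, 0 to 1 in each direction for phosphatidylserine, 0 to 1 lower for CDP-diacylglycerol and phosphatidylinositol, and 1 to 2 in each direction for acyltransferases. In the phosphatidylethanolamine branch 1 was lower with RLE factors, with no filter, with the stricter filter (at least 50 counts in 4 libraries) and with the replicate block. For phosphatidylserine 0 were lower with no filter and with the replicate block, and for CDP-diacylglycerol and phosphatidylinositol 0 with the stricter filter and with the replicate block. The replicate numbers gave no sign of pairing the libraries (correlations of same-numbered deviations −0.142, 0.0746, 0.0184 and −0.0183, and 1 library of 8 correlated best with its own number). With 4 libraries per group, this check cannot exclude a pairing. With the replicate block 7 members were called higher and 9 lower, since Etnk1 (adjusted p = 0.083), Ptdss2 (0.068) and Cds2 (0.065) were lost (edgeR). Genes with few counts, such as Pld6, Pcyt1b, Etnk2 and Mboat1, are limited by depth.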
